A study of Homo sapiens with 16 samples.

Results

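The guanylate-binding proteins GBP1, GBP2, GBP3, GBP4 and GBP5 were described across 4 bladder cancer cell lines. The 5 genes were taken by symbol from a table of 35993 genes, and all 16 libraries were used. GBP5 was chosen by its counts in 253J, which were 0 in both control libraries and at least 1120 in the treated ones, so its levels are given here as a description, with no test. The other 4 members were compared with it in each cell line.

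Guanylate-binding proteins are large GTPases of the dynamin superfamily that are among the genes most strongly induced by interferon gamma, in part through the transcription factor IRF1. They assemble on the membranes of intracellular bacteria and parasite vacuoles, and GBP1 builds a platform on bacterial lipopolysaccharide from which caspase-4 and gasdermin D drive inflammatory cell death. GBP5 is known for promoting inflammasome assembly and for inhibiting furin, the protease that matures many viral envelope proteins. In epithelial tumour cells their expression is a common readout of interferon signalling.

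The lines TCCSUP, RT112, J82 and 253J are established human bladder cancer cells labelled wild type. Each line was treated for 48 h with CM-1758, a histone deacetylase inhibitor, at the IC50 determined for that line, or, by the sample labels, with DMSO vehicle as control. RNA was sequenced from 2 libraries per line and treatment, which the study describes as independent biological replicates. TCCSUP was grown in EMEM and the others in DMEM, and the dose was set per line, so differences between cell lines cannot be told apart from differences in medium or dose. Libraries held 22506431 to 32537104 counts (median 28332731). In all 8 groups the 2 libraries differed by more than sampling noise. The keratins KRT8 and KRT18 were present in every library, whereas the urothelial gene UPK1B reached 8810 to 44765 counts in RT112 and was at 0 in 253J, and the epithelial adhesion gene EPCAM had 6204 to 6493 counts in RT112 and 11 to 69 in 253J and J82. Other such markers split the lines less: KRT7 reached 54775 counts in J82 and 56834 in RT112, CDH1 had 591 to 5287 in 253J, and UPK3A was at 0 in RT112. Of the mesenchymal markers, VIM had 34120 to 46679 counts in 253J and 5 to 272 in RT112, while FN1 had at least 22610 in every library. These are bulk libraries, in which fewer expressing cells and less RNA per cell cannot be told apart.

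The ends of the coding sequences are shown because the members differ there in how their products reach membranes. The 39 bases up to and including the stop codon were read from GENCODE 29 transcripts on chromosome 1, minus strand, 5′ to 3′. Capitals mark the last 4 codons before the stop where the first of them is a cysteine codon, the CaaX box to which a prenyl group is attached.
GBP1: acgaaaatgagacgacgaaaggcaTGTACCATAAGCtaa
GBP2: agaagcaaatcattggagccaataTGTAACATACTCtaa
GBP3: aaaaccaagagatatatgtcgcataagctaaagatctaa
GBP4: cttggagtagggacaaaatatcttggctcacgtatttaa
GBP5: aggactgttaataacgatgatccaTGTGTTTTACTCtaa
GBP1, GBP2 and GBP5 carry the box and GBP3 and GBP4 do not. The coding sequences of GBP1 and GBP3 were the closest pair of members, identical at 91.7% of aligned bases, while GBP5 matched GBP1 at 76.6% and GBP3 at 77.2%. Words of 50 bases shared exactly between transcripts made up 3.4% of those of GBP1 and 3.7% of those of GBP3 for this pair. At 100 bases the pair shared 0 words. Whether reads could be assigned to either gene thus depends on the read length, which was not examined. GBP2 shared more with GBP7, at 9.15% of its words of 50 bases and 8.42% of those of 100. GBP5 shared 0 of its 8325 words with any other member.

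Promoter windows in RefSeq, on build GRCh38.p14, were found for 3 of the 5 members, GBP1, GBP3 and GBP4. They reach from 250 bases before to 50 bases after the start. The 3 windows are shown around the interferon-stimulated response element core in capitals, on the minus strand. The core was searched on both strands as TTTC, any 2 bases and TTTC, or GAAA, any 2 bases and GAAA.
GBP1 chr1:89065316-89065345: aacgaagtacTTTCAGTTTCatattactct
GBP3 chr1:89022845-89022874: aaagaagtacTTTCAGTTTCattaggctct
GBP4 chr1:89198927-89198956: gtgcatgtccTTTCAATTTCggttctcaca
This core occurred in 3.57% of 35116 promoter windows of the same 300 bases. The GBP3 window also held the gamma-activated sequence TTCNNNGAA, found in 7.66% of all windows, at chr1:89022863-89022891 in actgagtcacTTCCTTGAAagaagtactt, upstream of the response element and apart from it. These matches are of letters and not of measured binding.

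GBP5, the member that defined the pattern, had 0 counts in both control libraries of 253J and 1120 and 1438 counts in the CM-1758 libraries. Scaled by TMM to CPM, the counts relative to library size, that is 44.4 and 48.5, a mean of 46.4 ± 2.94 CPM (SD, n = 2). Against a floor of 3 counts per library, the treated level was at least 416-fold higher. GBP5 was also higher in TCCSUP, with 27 and 23 counts in control and 164 and 107 in treated libraries, so the rise was not limited to 253J. The TCCSUP level went from 1.07 and 0.881 CPM to 6.14 and 4.21 CPM, a 5.3-fold difference of the means with both treated libraries above both controls, as in 45.4% of all genes there and 40.9% in 253J. No member had both treated libraries above both controls in J82 or RT112, where 34.8% and 41.8% of all genes did. In J82 the counts were 51 and 21 in control and 24 and 28 in treated libraries, and the ranges overlapped. In RT112 they were 7 and 19 in control and 5 and 2 in treated libraries, near the floor. In every line but 253J the highest GBP5 value was 6.14 CPM, under the 44.4 CPM of the lower treated 253J library.

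**Figure D1:**
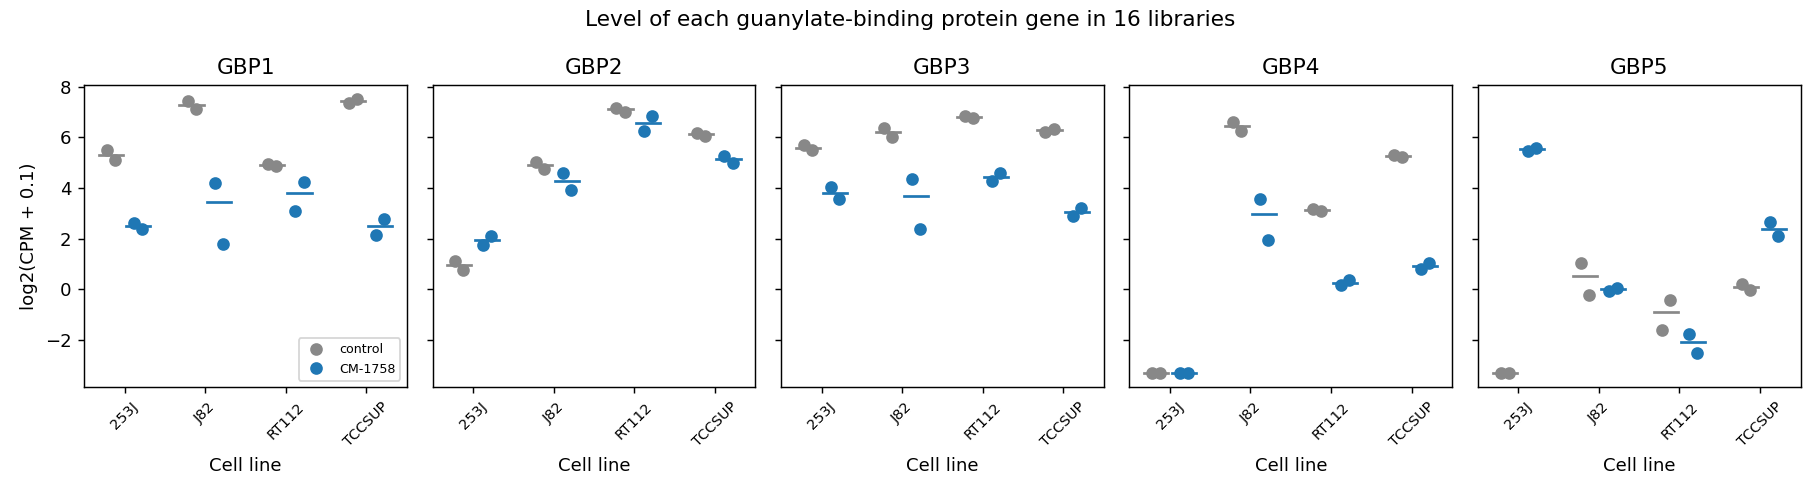
Level of each member in the 16 libraries, as log2 of CPM plus 0.1, for control (grey) and CM-1758 (blue). Each point is 1 library and each line the mean of 2 libraries. Both treated points of GBP1 and of GBP3 lie below both control points in every cell line. GBP4 is at 0 counts throughout 253J, and GBP5 is at 0 counts in control 253J and at 44.4 and 48.5 CPM in treated 253J.

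Because GBP5 is typical of lymphoid and myeloid cells, a list of 7 immune cell markers was read beside it. Their summed level was 1.92 to 2.39 CPM in control and 2.77 to 4.08 CPM in treated 253J. PTPRC, the pan-leukocyte marker CD45, had 0 to 11 counts in 253J, while ITGAM was the highest of the list there, at 46 to 72. In TCCSUP the sum was 20.3 to 20.9 CPM in control and 10.9 to 11.1 CPM in treated libraries. PTPRC had 26 to 275 counts in TCCSUP, and CD14 had 181 to 296. The sum was 3.2 to 4.67 against 5.59 to 6.37 CPM in J82 and 0.556 to 0.847 against 4.92 to 5.09 CPM in RT112. The part of such cells in the GBP5 levels was not tested.

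GBP1, the interferon gamma-induced member that coats cytosolic bacteria, was among the members with the largest falls. Its counts in 253J were 1238 and 894 in control and 153 and 151 in treated libraries. In TCCSUP they were 4127 and 4825 against 114 and 174. In J82 the control libraries had 4533 and 3789 counts and the treated ones 508 and 98. The treated J82 libraries thus stood apart from each other, and no treated library in these 3 lines reached the level of a control library of its line. Both treated libraries lay below both controls for 32.1% of all genes in 253J, 33.1% in TCCSUP, 32.5% in RT112 and 27.9% in J82. Mean levels fell from 39.5 ± 7.49 to 5.58 ± 0.682 CPM in 253J, from 155 ± 24.4 to 10.8 ± 10.5 CPM in J82 and from 174 ± 15.2 to 5.56 ± 1.82 CPM in TCCSUP (SD, n = 2 each). The log2 fold changes were -2.83 (SE 0.53), -3.85 (SE 0.53) and -4.97 (SE 0.57), with adjusted p of 4.12e-04, 4.35e-05 and 4.77e-06 by the edgeR quasi-likelihood test with Benjamini-Hochberg adjustment over 21297 genes. In J82 the size of the fall depended on the library, at -5.47 without treated replicate 1 and -3.09 without treated replicate 3.
In RT112, GBP1 had 953 and 866 counts in control and 218 and 498 in treated libraries. The ranges did not overlap, but the log2 fold change of -1.14 (95% interval -2.19 to -0.08) did not pass the edgeR test, with an adjusted p of 0.0714. This call depended on single libraries: GBP1 in RT112 was at -1.83 with an adjusted p of 0.0336 by edgeR without treated replicate 2 and at -0.67 with an adjusted p of 0.391 without treated replicate 1, and it also passed when either treated J82 library was left out, at 5.89e-03 without replicate 1 and 4.36e-03 without replicate 3. Counts of GBP1 and GBP3 summed, an alternative chosen after the data were seen, gave -2.01 in RT112 with an adjusted p of 1.73e-03 by edgeR.

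GBP3, a close relative of GBP1 without a CaaX box, was the 1 member called lower in all 4 cell lines, as were 6.01% of all genes tested. GBP1 also had both treated libraries below both controls in each line, but missed the limit in RT112. In RT112 the counts of GBP3 were 3511 and 3230 in control and 492 and 628 in treated libraries. In TCCSUP they were 1886 and 2116 against 198 and 230, and in 253J 1417 and 1172 against 408 and 352. J82 had 2183 and 1784 counts in control and 568 and 150 in treated libraries. In no line did the ranges overlap. The log2 fold changes were -3.24 (SE 0.41) in TCCSUP, -2.54 (SE 0.40) in J82, -2.38 (SE 0.39) in RT112 and -1.78 (SE 0.39) in 253J. Their adjusted p by edgeR ran from 1.33e-05 in TCCSUP to 1.39e-03 in 253J. As folds, these were 9.46, 5.83, 5.19 and 3.44. The log2 fold change of GBP3 in J82 was -3.78 without treated replicate 1 and -1.86 without treated replicate 3.

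GBP4, another member whose sequence ends without a CaaX box, was detected in 3 of the lines. Its counts were 0 in all 4 libraries of 253J, treated or not, which at these depths allows up to 3 counts per library. J82 had 2582 and 2082 counts in control and 330 and 110 in treated libraries. RT112 had 275 and 252 against 26 and 31, and TCCSUP 1001 and 983 against 44 and 49. The groups did not overlap in any of the 3 lines. The log2 fold change of GBP4 was -4.43 (SE 0.42) in TCCSUP, -3.49 (SE 0.37) in J82 and -2.99 (SE 0.44) in RT112, with adjusted p of 1.94e-06, 9.04e-06 and 1.22e-04 by edgeR. These are 21.6-fold, 11.2-fold and 7.94-fold. GBP4 in J82 was at -4.46 without treated replicate 1 and -2.88 without treated replicate 3. GBP3 and GBP4 were thus both lower in J82, RT112 and TCCSUP, as were 7.82% of all genes.

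GBP2, which associates with the Golgi and with pathogen vacuoles through its prenyl group, changed least. In 253J, where it was low, it had 57 and 42 counts in control and 83 and 126 in treated libraries, and the log2 fold change was 1.04 (SE 0.29, adjusted p = 8.21e-03 by edgeR). This rise did not pass without replicate 3 of the controls (0.87, adjusted p = 0.0741 by edgeR) or without treated replicate 3 (0.83, adjusted p = 0.084 by edgeR). TCCSUP had 1818 and 1761 counts of GBP2 in control and 1025 and 801 in treated libraries, 1.99-fold lower with a log2 SE of 0.22 (adjusted p = 1.48e-03 by edgeR).
In J82 GBP2 had 853 and 738 counts in control and 670 and 447 in treated libraries, a log2 fold change of -0.60 (SE 0.22) with an adjusted p of 0.0417 by edgeR. That call was lost with library size alone as the scale (adjusted p = 0.135) and without treated replicate 3 (-0.30, adjusted p = 0.367) or control replicate 1 of J82 (-0.46, adjusted p = 0.193), and leaving out any control library of another line or either treated library of TCCSUP gave adjusted p of 0.0501 to 0.055 by edgeR. In RT112 the GBP2 counts were 4431 and 3841 in control and 1976 and 2992 in treated libraries, and the log2 fold change of -0.52 (95% interval -0.98 to -0.06) did not pass, with an adjusted p of 0.058 by edgeR. GBP2 in RT112 did pass without RT112 treated replicate 2 (-0.83, adjusted p = 0.0184 by edgeR) and without any 1 of the 4 J82 libraries (adjusted p from 0.0284 to 0.0482).

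**Figure D2:**
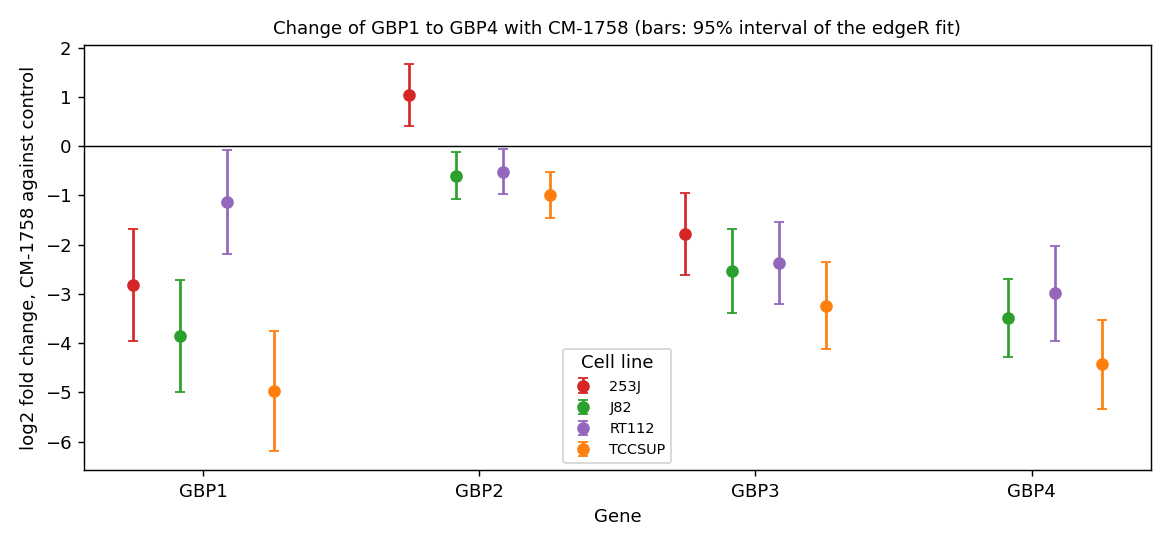
log2 fold change of GBP1 to GBP4 with CM-1758 against control in each cell line, with the 95% interval of the edgeR fit. GBP4 has no point in 253J, where all its counts are 0. GBP2 in 253J, at 1.04, lies above 0, and the other points lie between -4.97 and -0.52.

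By cell line, 2 of the 3 tested members with counts were lower and 1 was higher in 253J, where GBP4 was at 0 and where 22.4% of all genes were lower and 28.8% higher. In J82, 4 of 4 were lower, beside 18.5% of all genes. In RT112, 2 of 4 were lower, beside 20.2%, and in TCCSUP 4 of 4, beside 22.1%. None of GBP1 to GBP4 was called higher in J82, RT112 or TCCSUP, where 24%, 27.4% and 32% of all genes were. At a stricter call, a log2 fold change beyond 2 with an adjusted p under 0.01 by edgeR, the members lower were 1 in 253J (GBP1), 3 in J82 and 3 in TCCSUP (GBP1, GBP3 and GBP4) and 2 in RT112 (GBP3 and GBP4), and 0 were higher. Of all genes, that call took 3.5% as lower and 9.43% as higher in 253J, 1.24% and 8.81% in J82, 1.39% and 11.4% in RT112, and 3.31% and 14.2% in TCCSUP. The median log2 fold change over all tested genes ran from 0.05 in J82 to 0.20 in TCCSUP, close to 0 beside the falls of GBP1, GBP3 and GBP4.

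Without CM-1758 the lines differed in which members they held. GBP2 was ordered RT112, TCCSUP, J82 and 253J, with means of 138 ± 10.4, 69.7 ± 3.19, 29.6 ± 3.94 and 1.84 ± 0.322 CPM. Each neighbour in that order differed by the edgeR test of the pair, with adjusted p of 1.38e-03 for RT112 against TCCSUP, 2.87e-04 for TCCSUP against J82 and 9.77e-09 for J82 against 253J. Of all genes, 51.5%, 48% and 53.1% differed in these 3 pairs, 53.1% between 253J and TCCSUP, 54.3% between 253J and RT112 and 52.1% between J82 and RT112. GBP1 fell into 2 levels, since TCCSUP and J82 did not differ detectably (difference of J82 minus TCCSUP on the log2 scale -0.17, 95% interval -1.16 to 0.83) and neither did 253J and RT112 (0.39, 95% interval -0.63 to 1.41). The upper pair lay above the lower in each of the 4 comparisons across, with adjusted p from 5.26e-04 to 2.98e-03 by edgeR. GBP4 was ordered J82, TCCSUP, RT112 and 253J. It was 1.17 higher in J82 than in TCCSUP on the log2 scale (adjusted p = 0.0104 by edgeR) and 2.14 higher in TCCSUP than in RT112 on that scale, where RT112 minus TCCSUP was -2.14 (adjusted p = 1.86e-04 by edgeR). Even in RT112 the control level of GBP4 was at least 78.4-fold above the floor in 253J. GBP3 was the most even, from 48.1 ± 4.54 CPM in 253J to 112 ± 3.77 CPM in RT112. That pair was the 1 that differed for GBP3 (253J minus RT112 -1.22, adjusted p = 0.0119 by edgeR). The F test of the GBP3 control level over the 4 lines was at the limit (adjusted p = 0.0499 by edgeR). It missed the limit with RLE scaling (adjusted p = 0.058 by edgeR) and by DESeq2 (0.0609), and it depended on single libraries. GBP5 in control cells was at 0 in 253J and at 0.436 to 1.35 CPM on average in the other lines.

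The change with CM-1758 differed between the cell lines for GBP2 and GBP1, by edgeR F tests of the interaction with adjusted p of 2.09e-03 and 2.55e-03, a test that 51.9% of all genes passed. For GBP2 it was 253J that differed from each other line, by 1.64 from J82 (95% interval 0.85 to 2.43), 1.56 from RT112 (0.78 to 2.34) and 2.03 from TCCSUP (1.25 to 2.82) on the log2 scale, with adjusted p of 3.51e-03, 4.51e-03 and 7.22e-04 by edgeR, beside 30%, 30% and 28.6% of all genes that differed in these pairs. The other 3 lines did not differ detectably for GBP2, with J82 minus RT112 at -0.08 (95% interval -0.74 to 0.58). For GBP1, the change in TCCSUP was larger than in RT112 by 3.84 (95% interval 2.29 to 5.38, adjusted p = 1.02e-03 by edgeR) and larger than in 253J by 2.14 (adjusted p = 0.0392). The change of GBP1 in J82 exceeded that in RT112, where J82 minus RT112 was -2.72 (adjusted p = 0.0115 by edgeR). The pairs RT112 and TCCSUP, J82 and RT112, and J82 and TCCSUP differed for 27.5%, 22.2% and 22.2% of all genes. The F test of GBP3 gave 0.166 and that of GBP4 0.236, and between the 3 lines with GBP4 the largest difference was RT112 minus TCCSUP, 1.44 (95% interval 0.09 to 2.79, adjusted p = 0.108 by edgeR). Without treated J82 replicate 1 or 3 the F tests of GBP3 (adjusted p = 2.14e-04 and 1.06e-03 by edgeR) and GBP4 (5.51e-03 and 1.94e-03) passed.

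Levels of different members were compared per length of transcript, as CPM per kb, with the length of the annotated transcript. The make-up of the family turned over in 253J. Its sum was 29.5 ± 4.09 CPM per kb in control and 31.2 ± 0.558 in treated cells, but how the sum moved depended on the GBP5 length. GBP3 led in control 253J, and GBP5 led with CM-1758, at 23.1 CPM per kb and 71.6% and 76.4% of the family sum in the 2 libraries. With the longest annotated coding transcript of each gene as the length, treated GBP5 was at 9.88 CPM per kb, its share was 55% ± 4.33 (SD, n = 2), and the treated sum of 18 ± 0.279 CPM per kb lay below the control sum of 29.5 ± 4.09. In J82 the sum went from 103 ± 17 to 18.2 ± 10.7 CPM per kb, in RT112 from 110 ± 6.24 to 54.9 ± 15.2 and in TCCSUP from 121 ± 4.74 to 23.1 ± 1.85. GBP2 led in the treated cells of all 3 of these lines. GBP5 made up 0.402% of the sum in control TCCSUP and 11% ± 2.05 in treated TCCSUP, or 0.173% and 5.05% ± 1 with the longest transcripts.

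**Figure D3:**
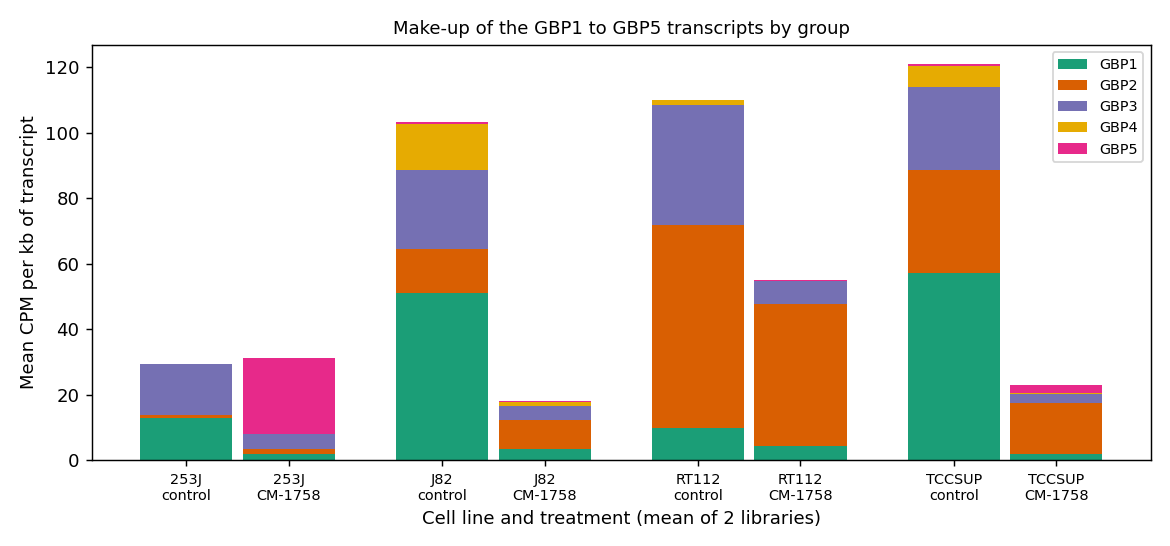
Mean CPM per kb of transcript of GBP1 to GBP5, stacked, in each group of 2 libraries. The sums are 29.5 and 31.2 CPM per kb in control and treated 253J, where GBP5 takes most of the treated bar, and fall from 121 to 23.1 in TCCSUP, where GBP2 leads after treatment.

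The genes lie side by side on chromosome 1, where the tested genes of the cluster come in the order GBP3, GBP1, PTGES3P1, GBP2, GBP4, GBP5, GBP6 and GBP1P1. GBP6, the neighbour of GBP5, had 0 counts in control 253J and 44 and 114 in treated 253J, at least 25-fold higher (adjusted p = 5.02e-06 by edgeR). In RT112 GBP6 had 662 and 610 counts in control and 53 and 79 in treated libraries, a log2 fold change of -3.05 (SE 0.36, adjusted p = 3.19e-05 by edgeR). TCCSUP had 54 and 65 counts of GBP6 against 41 and 41, and J82 had 0 in every library. GBP6 and GBP5 thus both went from 0 counts to over 40 in 253J, while GBP4, on the other side of GBP5, was at 0 throughout. GBP7 never exceeded 6 counts in a library and was not tested. Outside the cluster, GTF2B, which encodes the general transcription factor TFIIB, rose in 253J (1.12), RT112 (1.63) and TCCSUP (1.62) on the log2 scale, with adjusted p of 2.32e-04, 1.09e-05 and 9.10e-06 by edgeR. On the other side LRRC8C, a subunit of volume-regulated anion channels, had log2 fold changes of -0.87 in 253J, -0.83 in TCCSUP and 0.57 in RT112 (adjusted p of 2.06e-03, 2.52e-03 and 0.029 by edgeR). Beside GTF2B, RBMXL1 fell in 253J (-1.14) and J82 (-0.63), and KYAT3 rose in TCCSUP alone (0.63). Beside LRRC8C, LRRC8B fell in 253J (-0.84) and rose in J82 (1.13) and RT112 (0.60). LRRC8C-DT, at low counts, rose in J82 (2.02), RT112 (2.53) and TCCSUP (1.99). Each of these changes passed the edgeR test.

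The counts of called genes in the lists that follow stand beside these shares of all genes: 28.8% higher and 22.4% lower in 253J, 27.4% and 20.2% in RT112, 24% and 18.5% in J82, and 32% and 22.1% in TCCSUP. Among transcription factors of the interferon response, 7 were tested. In 253J 2 rose and 1 fell, and in RT112 5 rose and none fell. In J82 none rose and 5 fell, and in TCCSUP 1 rose and 4 fell. Their median log2 fold change was 0.00 in 253J, where IRF8 was at 0 counts and entered as 0, 0.88 in RT112, -1.24 in J82 and -0.72 in TCCSUP, beside medians of 0.10, 0.12, 0.05 and 0.20 over all genes. GBP3 was lower in each of these lines.

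IRF1, which acts on interferon-responsive promoters, rose in RT112 (0.88, SE 0.25, adjusted p = 0.0107 by edgeR) and fell in J82 (-0.84, SE 0.25, adjusted p = 0.0151), where the library ranges overlapped. The size of the IRF1 rise in RT112 held when 1 library was left out, at 0.80 to 0.94. Its call still missed the edgeR limit without either control replicate or treated replicate 2, fits that leave 1 library in a group. The size of the fall in J82 did depend on single libraries, at -0.29 without control replicate 1 and -0.51 without treated replicate 3. That fall missed the limit in both fits and with the line fitted alone (adjusted p = 0.0942 by edgeR). IRF1 did not pass in 253J (-0.43, adjusted p = 0.175) or TCCSUP (-0.38, adjusted p = 0.224). STAT2 and IRF9, which act together in the type I interferon response, moved in the same direction in each line. STAT2 had log2 fold changes of 1.12 in 253J, 0.82 in RT112, -1.85 in J82 and -0.72 in TCCSUP, and its call in TCCSUP was lost with library size alone as the scale (adjusted p = 0.0506 by edgeR). IRF9 was at 1.02 in 253J, 0.71 in RT112, -2.72 in J82 and -2.16 in TCCSUP on the log2 scale, all 4 past the edgeR test. NLRC5, the activator of class I antigen presentation genes, had log2 fold changes of 2.69 in RT112, -2.10 in J82 and -1.56 in TCCSUP, all past the edgeR test. IRF8, a factor mostly of myeloid cells, had 3 to 5 counts in control and 69 to 88 in treated RT112.

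Of 7 tested negative regulators of the pathway, 4 rose and 1 fell in 253J, 3 and 2 in J82, 4 and 1 in RT112, and 3 and 1 in TCCSUP. The cytokine signalling inhibitor SOCS3, the SUMO ligase PIAS1 and the phosphatase PTPN1 rose in all 4 lines, from 0.50 for PIAS1 in TCCSUP to 1.92 for PIAS1 in RT112 on the log2 scale. USP18, which blocks the type I interferon receptor, was lower in all 4 lines, from -0.78 in RT112 to -3.58 in J82, and its call in RT112 was lost with library size alone as the scale (adjusted p = 0.0839 by edgeR). Of 9 receptors and kinases, 5 fell and none rose in 253J, 4 fell and 1 rose in TCCSUP, and 1 rose and 1 fell in each of J82 and RT112. With library size alone as the scale, the calls of IFNGR2 and IL10RB were lost in 253J (adjusted p of 0.106 and 0.0858 by edgeR). Both were also lost in TCCSUP (adjusted p of 0.0591 and 0.439 by edgeR). JAK1, a kinase of both interferon receptors, had log2 fold changes of -0.70 in 253J, -0.72 in TCCSUP and 0.56 in RT112, past the edgeR test in each.

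Other interferon gamma-induced genes, 12 of them tested, differed in their counts by line. In J82 10 fell and 1 rose and in TCCSUP 9 fell and 1 rose, while in RT112 6 rose and 3 fell and in 253J 3 rose and 4 fell, close to the shares of all genes in that line. The immunoproteasome subunit PSMB8 fell in every line like GBP3, with log2 fold changes from -2.37 in 253J to -2.15 in RT112 (adjusted p from 2.02e-05 to 4.47e-06 by edgeR). TAP1, the peptide transporter encoded beside it, fell in each line as well, from -2.21 in 253J to -0.77 in RT112, where the call was lost with library size alone as the scale (adjusted p = 0.0743 by edgeR). The chemokine CXCL10 went the other way in RT112, from 5 and 6 counts to a range of 161 to 228 (5.32, SE 0.84, adjusted p = 1.61e-04 by edgeR), and fell in J82 (-3.57, SE 0.68, adjusted p = 8.07e-04).

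Genes that act with the guanylate-binding proteins in cell-autonomous defence numbered 13 among those tested, of which 2 rose and 4 fell in 253J, 4 and 5 in J82, 4 and 3 in RT112, and 2 and 6 in TCCSUP. The counts in RT112 were close to the shares of all genes. Gasdermin D, GSDMD, which forms the pore of inflammatory cell death, fell in all 4 lines, with log2 fold changes from -2.70 in J82 to -1.60 in RT112 (adjusted p from 6.24e-06 to 1.05e-07 by edgeR). Caspase-1, CASP1, had log2 fold changes of -3.84 in TCCSUP, -3.68 in RT112 and -2.65 in J82, all past the edgeR test, and was at 0 in every 253J library, as GBP4 was. CASP4, the caspase recruited by GBP1, was likewise at 0 throughout 253J. IRGM, an immunity-related GTPase of autophagy, also rose in 253J, from 0 and 8 counts in control to a range of 1598 to 1881 in treated libraries, 0.153 ± 0.217 against 63.4 ± 0.125 CPM (8.69, SE 0.66, adjusted p = 3.49e-07 by edgeR). IRGM was also higher in TCCSUP (3.89, SE 0.76, adjusted p = 8.69e-04 by edgeR), at least 6.73-fold in J82 and at least 21-fold in RT112. Its control counts were 0 and 8 in 253J, 0 and 7 in TCCSUP, and 0 in J82 and RT112. IRGM thus passed the low-count filter only through treated libraries, and it was named for the size of its change. Its adjusted p are therefore a description and not independent support.

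**Figure D4:**
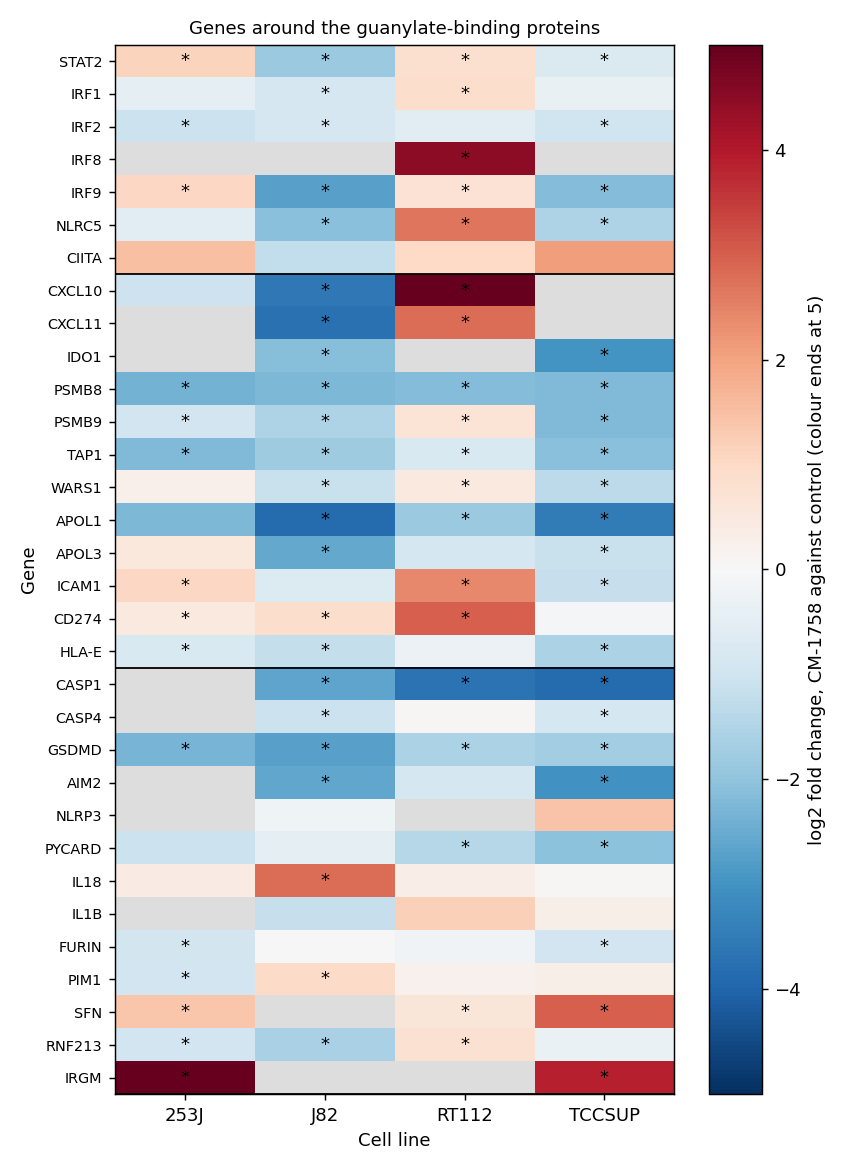
log2 fold change with CM-1758 in each cell line for transcription factors of the interferon response (top block), other interferon gamma-induced genes (middle) and genes of cell-autonomous defence (bottom). Colours end at 5, asterisks mark an adjusted p under 0.05 by edgeR, and grey cells had counts too low for an interval. PSMB8, TAP1 and GSDMD are lower in all 4 lines, and STAT2 and IRF9 are higher in 253J and RT112 and lower in J82 and TCCSUP.

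Over the 16 libraries, GBP1 and GBP3 were the members most alike (Pearson r = 0.868 of log2 CPM), followed by GBP2 and GBP4 (0.715). GBP5 had r of -0.445 to -0.098 with the other members. Of 18382 genes, those most like GBP3 were TMCO4 (0.982), JADE2 (0.965) and CYB561 (0.955), and those most like GBP4 were CASP1 (0.971), TMEM52B (0.971) and RHOBTB3 (0.97). GBP2 was most like MARVELD2 (0.985), PCDH7 (0.981) and H4C13 (0.971), and GBP1 like DBF4B (0.947), PRR14 (0.945) and SH2D4A (0.943). For GBP5 the likeness was lower, with SPAG9 (0.912), SECISBP2 (0.9) and ZNF890P (0.891). The 16 points share cell line and treatment, so these correlations describe the pattern over 8 groups and carry no test.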

How the data were processed

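The deposited values are raw counts, whole reads per gene symbol, in 1 table of 16 libraries from stranded total RNA depleted of ribosomal RNA. The submitters' processing notes name HISAT2, StringTie and the build GRCh37, with no version or role, and the annotation is not given in the sources used here. All columns were matched to samples by their labels.

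A low-count filter (filterByExpr on the 8 groups) kept 21297 genes. TMM scaling and 1 quasi-likelihood fit over all 16 libraries were done in edgeR 4.0.16 (R 4.3.3). Each comparison was adjusted by Benjamini-Hochberg with a limit of 0.05. Intervals are 95%. CPM use TMM-scaled library sizes. The interaction of line and treatment was an F test. The floor was 3 counts per library, and group means have 2 libraries, so the spread is borrowed across genes (common biological coefficient of variation 0.153).

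Members, gene lists and the naming rule were chosen with earlier results of these data known. Named were the members, IRF1, neighbours in the cluster, the list genes with the largest changes in each line, and the 3 genes most correlated with each member. Of the genes this rule gives, 1 is not reported here and was left out of its list. Genes named beyond these were chosen after their values were seen. Lengths and coding ends came from GENCODE 29 on GRCh38, another build than that of the counts, so no gene positions are given beyond the promoter windows. On simulated counts for 253J, 172 of 200 genes changed 4-fold were recovered among 21297, with 8 other calls. There all other genes were unchanged and the changed ones were drawn from genes above low counts. In the data 28.8% of genes were called higher in 253J and 22.4% lower. The simulation thus does not give the recovery or error rate of the calls reported. Alternatives were RLE scaling, library size alone, DESeq2 1.42.0, other filters and call rules, fits per line, a replicate block and leaving out each library.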

Additional observations from a re-analysis of the deposited data

Results flagged for a closer look

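The edgeR F test of the interaction was read for GBP1 to GBP4, GBP6 and IRF1, and not for the other genes described. For 4 of those read, the change with CM-1758 differed between the 4 cell lines. GBP1 gave an adjusted p of 2.55e-03 and GBP2 of 2.09e-03. GBP6 gave 6.19e-06, with a rise from 0 counts in 253J and a fall in RT112. IRF1 gave 5.28e-03. The same test was passed by 51.9% of all genes. Groups of 2 libraries are too small to test 1 library as an outlier.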

How the results depend on the processing

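No called result changed direction. Of the values for single genes under the alternatives, 613 kept their call, 44 lost it and 20 gained it. With a call at log2 fold change over 2 and adjusted p under 0.01, 0 of GBP1 to GBP4 were higher in 253J and 1 lower. The main fit called 13 of 61 tested pathway genes higher and 23 lower in 253J, and 9 and 29 in J82. It called 21 and 16 in RT112 and 8 and 32 in TCCSUP. Under the stricter rule these were 3 and 3 in 253J, 3 and 12 in J82, 7 and 3 in RT112, and 2 and 9 in TCCSUP. Of all genes, that rule took 9.43% as higher and 3.5% as lower in 253J, and 8.81% and 1.24% in J82. It took 11.4% and 1.39% in RT112, and 14.2% and 3.31% in TCCSUP. With at least 10 counts in every library, which leaves out GBP4 and GBP5, 2 members were lower in J82 and 1 in RT112, and 18 pathway genes were lower in J82. In RT112, 4 members were lower with each line fitted alone and 4 with the replicate block. With library size alone as the scale, which moved the median log2 fold change of all genes to 0.19 to 0.51, the log2 bound of GBP5 in 253J was 8.97, and 14 pathway genes were higher in TCCSUP. Leaving out 1 library gave 0 to 1 members higher in 253J (0 without control replicate 3 or treated replicate 3), 3 to 4 lower in J82, 2 to 4 lower in RT112, 2 to 4 with a change that differed between lines, a GBP5 bound of 8.63 to 8.76, 8 to 16 pathway genes lower in RT112 (10 without RT112 control replicate 2, 8 without RT112 treated replicate 1) and 5 to 10 higher in TCCSUP (5 without TCCSUP control replicate 2). The cause was not tested. The GBP5 difference in J82, given with no test, ran from -1.09 to 0.24. The fall of GBP2 in J82 also missed the edgeR limit with RLE scaling (adjusted p = 0.081) and with the line fitted alone (0.116), and by DESeq2 (0.0891). The labels number the replicates without saying whether equal numbers pair the samples, and the main fit used no pairing. The correlations that follow cannot decide it. Same-numbered deviations correlated at 0.218 in J82, 0.0427 in RT112, 0.0173 in TCCSUP and 0.0529 in 253J, and the replicate block otherwise moved no count of member calls by over 1.5 times. With 2 libraries a group and low GBP5 counts outside treated 253J, small differences of GBP5 were not detectable at this depth.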

Other observations

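The enzymes that process the CaaX box numbered 6 among those tested. The protease RCE1 was lower in all 4 lines, from -0.58 in J82 to -0.99 in 253J on the log2 scale, as was ZMPSTE24, from -0.55 in RT112 to -1.46 in TCCSUP. With library size alone as the scale, RCE1 in J82 (adjusted p = 0.0543 by edgeR) and ZMPSTE24 in RT112 (adjusted p = 0.0533 by edgeR) did not pass. In 253J the methyltransferase ICMT was 2.41-fold lower and FNTA, a subunit shared by the farnesyl and geranylgeranyl transferases, 2.14-fold higher. In all, 6 fell in RT112, 4 in TCCSUP and 2 in J82, and in 253J 4 fell and 1 rose. Of all genes, 20.2% fell in RT112, 22.1% in TCCSUP, 18.5% in J82 and 22.4% in 253J. The atlastins are endoplasmic reticulum GTPases related to the guanylate-binding proteins, and of 3 tested, 3 fell in 253J, 3 in TCCSUP and 2 in J82, and in RT112 1 rose and 1 fell. With library size alone as the scale, the calls of ATL1 in 253J and of ATL2 in J82 and TCCSUP were lost (adjusted p of 0.282, 0.179 and 0.189 by edgeR). ATL3 fell in every line, with log2 fold changes from -1.71 in 253J to -0.80 in RT112, and ATL1 had -2.47 in TCCSUP and 0.94 in RT112, both past the edgeR test.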
